A study of Apis mellifera with 20 samples.

Results

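The comparison set RNA pulled down with an m6A antibody against unselected RNA in queen larvae of the honeybee, Apis mellifera, at instar 3 (L3). Its members are 4 of the 20 libraries in the series: 2 immunoprecipitated libraries (IP) and 2 input libraries, chosen by the titles of the samples. The other 16 libraries hold the same kinds of library from larvae of instar 1 (L1), L3 workers, and queens and workers of instar 5 (L5), with 2 IP and 2 input libraries for each. All come from colonies kept at an apicultural institute, with larvae given as the tissue, and the labels name neither a treatment nor how many larvae went into a library. L3 queens and L3 workers share the instar and differ in caste, L5 queens share the caste, and L1 larvae can still develop into either caste. The IP libraries were made with an antibody from Synaptic Systems on fragmented polyadenylated RNA, and the input libraries from the same kind of RNA without antibody. None of the 20 libraries is labelled as a pulldown with another antibody, so a difference between IP and input is an enrichment by the pulldown and not a measured level of m6A.

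N6-methyladenosine is a methyl group on adenosines inside messenger RNA. It is written by a methyltransferase complex around METTL3 and METTL14 and read by proteins with a YTH domain, and in animals it is known to act on splicing, decay and translation. Queens and workers are female castes that arise from alike eggs on different larval food, and instar 3 lies within the time in which caste is being settled. A pulldown takes up transcripts with many marked copies or sites more than unmarked transcripts of the same abundance.

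The deposited tables give 1 FPKM value (fragments per kilobase, relative to all mapped fragments) for each of 15314 gene models and each library. Models have IDs starting with GB and no gene names. A look-up in RefSeq's table for assembly Amel_HAv3.1 (12398 genes) gave a match for 0 of the 15314 IDs. No gene function, pathway or tissue marker could therefore be read, and models are described by position, span and level. Coordinates are as deposited, without a build, because no build is given in the sources used here. The 4 libraries listed 9702 to 9948 models above 1 FPKM and 2433 to 3296 models at 0, and their read depth is unknown. Median-of-ratios factors were 0.911 and 0.800 for the IP libraries and 1.21 and 1.14 for the input libraries, and "scaled FPKM" below is FPKM divided by these. Whether the replicates are separate collections of larvae is not in the labels, and the spread behind each p-value may be technical only.

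A single model of short span made up a large part of the summed FPKM in the pulldown. FPKM divides by length, so this share exceeds the model's share of fragments. GB43330 (GroupUn98, 15844 to 16065, plus strand, a span of 222 bases) held 36.03% and 37.97% of the summed FPKM in the 2 IP libraries and 9.72% and 11.2% in the 2 input libraries. Its scaled FPKM was 301600 and 359300 in IP against 51740 and 63490 in input. Both IP libraries lie above both input libraries, by 2.52 ± 0.14 log2 units (SE over 2 IP and 2 input libraries, limma adjusted p = 1.23e-03). The next most abundant model of each library held 1.31% and 1.39% in IP and 4.08% and 4.64% in input. Neither its level nor its enrichment was particular to L3 queens, and it held over 10% of the summed FPKM in 9 libraries of the series. In L3 workers it had 473900 and 396400 in IP against 74190 and 64560 in input. At L1 it had 313500 and 327900 against 50070 and 49570. At L5 its values lay within 820.3 to 4489 in both castes, with log2 differences of 1.61 in queens and 1.79 in workers. The files do not annotate what GB43330 encodes. With GB43330 left out, the summed FPKM was 488087 and 469566 in IP and 580309 and 569319 in input.

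A large share of the models stood apart between pulldown and input, and how they split by direction depends on the scaling, which here puts the typical model near 0. Of the 10028 models that averaged 1 scaled FPKM or more, 5325 (53.1%) differed between IP and input at a limma adjusted p under 0.05. They were 2747 models (27.4%) higher in IP and 2578 models (25.7%) lower in IP, against 1839 higher and 3961 lower on the FPKM as deposited. Without GB43330, the models called higher held 48.6% and 50.7% of the summed FPKM in IP and 17.2% and 18.0% in input. The models called lower held 22.2% and 20.1% in IP and 50.1% and 48.6% in input. These shares restate the calls in units of signal and carry no test.

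**Figure D1:**
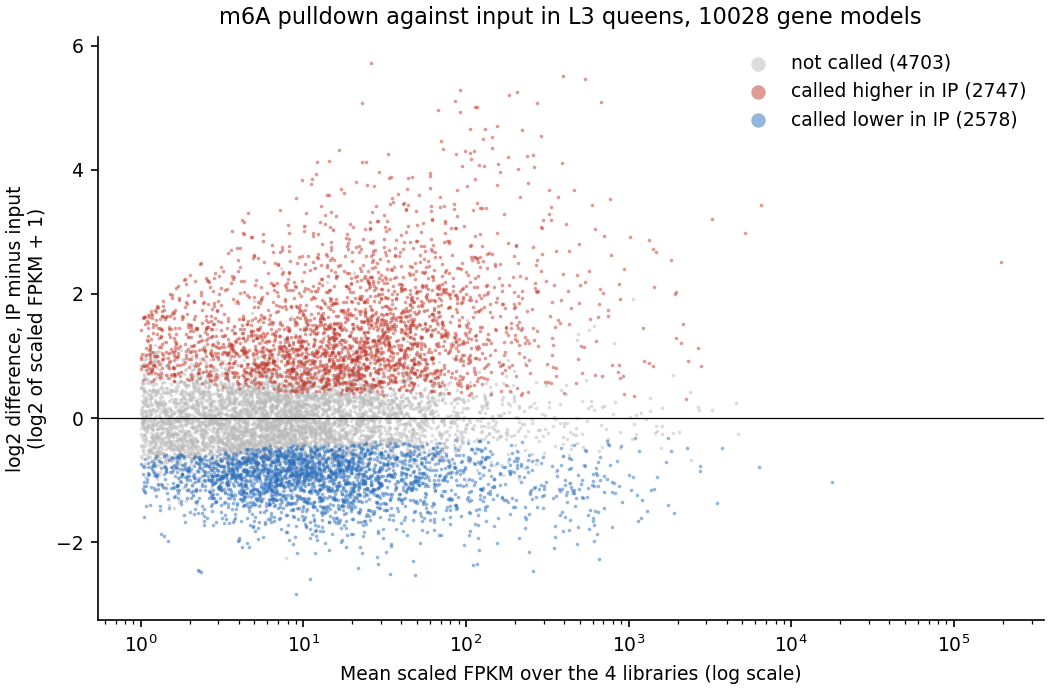
Log2 difference between IP and input (y axis, log2 of scaled FPKM + 1) against the mean scaled FPKM over the 4 L3 queen libraries (x axis, log scale), with 1 point per gene model. The red points (2747 models, higher in IP) reach farther from 0 than the blue points (2578 models, lower in IP), and GB43330 is the point at the far right.

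On the median-of-ratios scale the 2 directions were unequal in size. Another scaling shifts all models, and with them the sizes and counts given here. Models higher in IP had a median log2 difference of 1.28, with 10% of them above 2.60, and models lower in IP had a median of -0.94, with 10% below -1.50. Among the higher models 1856 exceeded 1 log2 unit, 586 exceeded 2 and 156 exceeded 3. Among the lower models 1140 exceeded 1 log2 unit, 37 exceeded 2 and 0 exceeded 3. The log2(FPKM + 1) scale compresses the differences of models with few FPKM, and the difference of a model lower in IP is bounded by its input level.

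Replicates lay closer together than IP and input. The median absolute log2 difference was 0.23 between the 2 IP libraries, 0.21 between the 2 input libraries and 0.68 between the IP and input means. A gap of over 1 log2 unit was seen for 287 models between IP replicates, 235 between input replicates and 3138 between IP and input. Both IP libraries lay above both input libraries in 3934 models (39.2%) and below both in 4001 (39.9%). All 5325 called models were among these, and a further 1187 models above and 1423 below were separated in the same way but did not pass the test. The count of calls was 3289 without IP replicate 2, which kept 1851 of the higher and 1368 of the lower models. The models lower in IP numbered 1413 without IP replicate 2 and 1595 without input replicate 1.

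Directions are relative to the typical gene. On the FPKM as deposited the median of all models moved from -0.01 to -0.40 log2 units, with the split given above. With upper-quartile scaling the median moved to -0.33 and the calls became 2025 higher and 3795 lower. All 2578 models called lower stayed so on both scales, 1833 and 2025 of the 2747 models called higher stayed so, and 0 models were called in the opposite direction. Both scales lower IP against input, which moves models called lower farther from 0. That all of them stayed is therefore no support for them over the higher models. A further limit is that 2451 of the 10028 models (24.4%) overlap another model, and the library kit does not mark strand.

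The model with the highest fitted difference was GB52617 (Group10.25, 258724 to 275756, minus strand). It had a scaled FPKM of 44.9 and 59.1 in IP and was listed at 0 in both input libraries, so no fold is given (limma adjusted p = 7.76e-04). It passed the filter on level through IP alone, so its call is given as a description. In FPKM files a listed 0 may stand for an estimate that failed. In libraries that this comparison did not use, it had 16.4 and 14.4 in L3 worker IP against values listed at 0 in both inputs, and 32.9 and 96.1 in L1 IP against 1.45 and 3.02 in input.

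The second was GB53599 (Group10.10, 247388 to 250313, plus strand). Its scaled FPKM was 839.7 and 716.7 in IP against 17.8 and 14.3 in input, higher in IP by 5.51 ± 0.16 log2 units (SE over 2 IP and 2 input libraries, limma adjusted p = 7.42e-04). It lies inside a model on the minus strand (245237 to 259280) that had at most 0.252 scaled FPKM in the 4 libraries. In L3 workers IP stood 5.31 log2 units above input (521.8 and 356.2 against 11.8 and 8.25), and at L1 5.36 units (334.4 and 770.1 against 8.17 and 15.8).

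The 2 lowest models were GB54979 and GB52538. GB54979 (Group1.41, 75936 to 76859, plus strand) had 1.29 and 1.64 scaled FPKM in IP against 14.8 and 18.3 in input, a change of -2.83 ± 0.18 log2 units (SE over 2 IP and 2 input libraries, limma adjusted p = 1.35e-03). It overlaps a model on the minus strand (75967 to 79776) with 202.1 and 206.6 in IP and 210 and 195.8 in input, so its reads cannot be told apart with certainty from those of a far more abundant partner. GB52538 (Group12.11, 677463 to 680437, minus strand) overlaps no model and had 2.38 and 2.46 in IP against 20.9 and 18.3 in input, a change of -2.59 ± 0.14 log2 units (SE over 2 IP and 2 input libraries, limma adjusted p = 1.23e-03). In both models each IP library of L3 queens lay below each input library. In L3 workers GB54979 was listed at 0 in both IP libraries against 17.6 and 19.0 in input, and at L1 it had 8.23 and 4.22 in IP against 25.7 and 15.6. At L5 its libraries were listed at 0 to 6.60 in both castes, and the IP mean lay above the input mean by 1.14 log2 units in queens and 1.46 in workers. GB52538 had 1.99 and 2.92 in IP against 13.5 and 10.7 in input in L3 workers, and 14.4 and 9.61 against 19.7 and 15.5 at L1, where the log2 difference was -0.53. At L5 its log2 difference was 0.26 in queens and -0.53 in workers.

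The call of a model that dominated other libraries of the series depended on the fit. GB44996 (Group11.18, 2869506 to 2873834, minus strand) held over 10% of the summed FPKM in 3 libraries of the series, none of them from L3 queens. In L3 queens it had 5282 and 4581 scaled FPKM in IP against 4420 and 3908 in input. IP minus input was 0.24 ± 0.12 log2 units (SE over 2 IP and 2 input libraries, limma adjusted p = 0.153), which missed the threshold. With the replicate number as a block the same difference passed (limma adjusted p = 1.98e-03), and it was -0.21 on the FPKM as deposited and -0.12 with upper-quartile scaling.

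**Figure D2:**
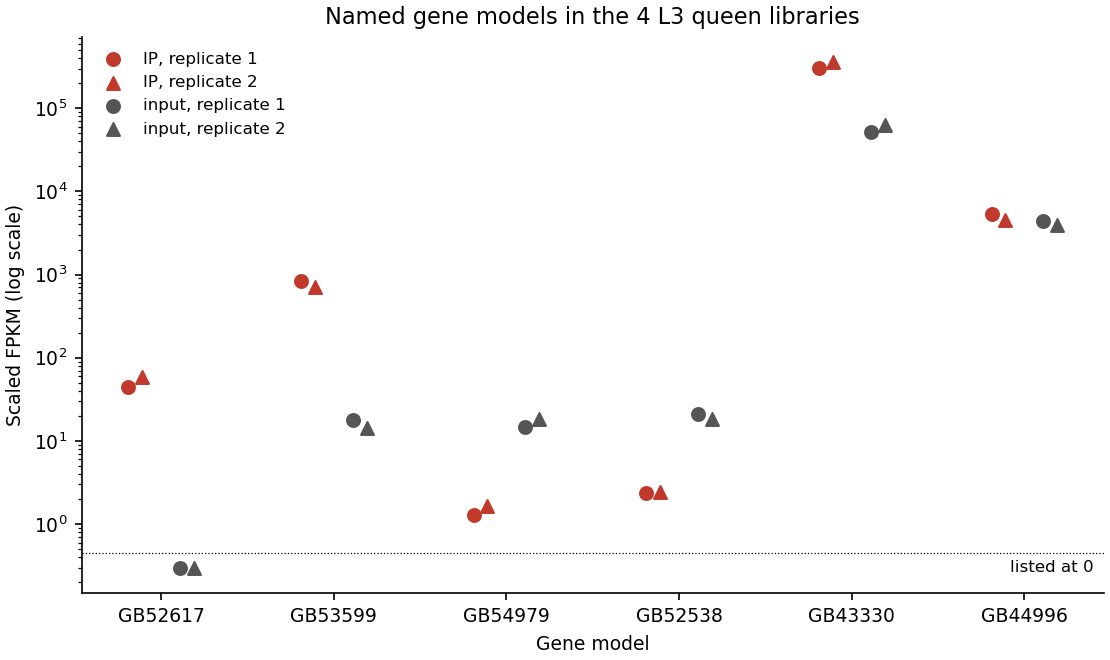
Scaled FPKM (y axis, log scale) of 6 named models in each of the 4 L3 queen libraries, with red for IP, grey for input, circles for replicate 1 and triangles for replicate 2. IP lies above input in GB52617 (input listed at 0, drawn below the dotted line), GB53599 and GB43330 and below it in GB54979 and GB52538, while the libraries of GB44996 lie within 3908 to 5282.

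A small group of models was seen in only 1 kind of library. There were 29 models listed at 0 in both input libraries with at least 1 scaled FPKM in both IP libraries. The test calls them by their selection, so they are given as a description. Their IP values ranged from 1.20 to 59.1, with a median of 3.02. In the other direction 7 models were listed at 0 in both IP libraries and had at least 1 scaled FPKM in both inputs, from 1.40 to 5.83. Without all models listed at 0 in both libraries of a kind, 5283 models were called.

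The share of models enriched by the pulldown climbed with the stretch of genome a model spans. Span here is the distance from the first to the last base of a model, introns included, since the files give no exons. Of the 181 models spanning over 64 kb, 84 (46.4%) were called higher in IP and 6 (3.31%) lower, with a median log2 difference of 0.76. Of the 785 models of 16 to 64 kb, 305 (38.9%) were higher and 71 (9.04%) lower, with a median of 0.49. The 4550 models of 1 to 4 kb went the other way, with 1042 (22.9%) higher and 1490 (32.7%) lower and a median of -0.21. The 3240 models of 4 to 16 kb lay between them, with 945 (29.2%) higher, 707 (21.8%) lower and a median of 0.07. These are set against 27.4% higher and 25.7% lower over all models tested. The difference between the medians of the widest class and of the 1 to 4 kb class was 0.97 log2 units, and 0.46 with no filter on low values. Its SD was 0.32 over the 4 pairings of an IP with an input library. These pairings share libraries, so the SD is not a standard error. In the 2 pairings of the same replicate number the medians were 0.76 and 0.78 over 64 kb and -0.21 and -0.21 at 1 to 4 kb. Relative to the median of all models, the 2 widest classes stayed above 0 and the 1 to 4 kb class below 0 under each of the 15 alternatives. Not all of these could move the values. The replicate block and the fit without a variance trend leave medians unchanged, and a shift of all models by scaling mostly cancels.

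The class under 1 kb was mixed. It had 371 of 1272 models (29.2%) higher and 304 (23.9%) lower, with a median of 0.03. Within it, the 291 models of up to 300 bases had 104 (35.7%) higher and 46 (15.8%) lower, with a median of 0.53, and the 232 models over 300 and up to 500 bases had 91 (39.2%) higher and 39 (16.8%) lower. The 749 models over 500 and up to 1000 bases lay nearer to the 1 to 4 kb class, with 176 (23.5%) higher and 219 (29.2%) lower. The split of this class was added after its values were seen.

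The shares called also differed between classes of level. A level that includes IP is raised by enrichment itself, so these classes are a description and not independent of the calls. Models were put into 5 classes by their mean scaled FPKM over the 4 libraries, each spanning a 4-fold range from 1 upward, with the last class open. The fourth class, which starts at 64, had the highest share called higher in IP, 410 of 913 (44.9%), against 244 (26.7%) lower. The 345 models of the last class had 116 (33.6%) higher and 132 (38.3%) lower, the highest share of lower calls among the level classes. At 1 to 4 scaled FPKM only 413 of 2437 (16.9%) were higher and 443 (18.2%) lower. Median log2 differences were -0.07 at 1 to 4, -0.12 at 4 to 16, 0.20 at 16 to 64, 0.32 in the fourth class and -0.18 in the last. Relative to the median of all models, the fourth class lay at 0.22 and 0.14 without IP replicates 1 and 2. It lay at 0.46 and 0.56 without input replicates 1 and 2. The last class lay at -0.24, -0.35, -0.05 and 0.03 under the same choices. Level was taken over the libraries left, so leaving out an IP or an input library also changes the classes. No classes were made by input alone. The median input was 11.6 scaled FPKM for models higher by up to 1 log2 unit. It was 8.675 for those higher by 1 to 2 units, 9.035 at 2 to 3 units and 6.97 over 3 units. For models lower by up to 1 unit it was 14.0, for 1 to 2 units 19.6 and for over 2 units 47.4. These groups are cut by IP minus input, so input is not independent of them either.

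Wider models had higher medians within level classes as well. Among models of 16 to 64 scaled FPKM, the median log2 difference was -0.04 for the 1199 models of 1 to 4 kb, 0.32 for the 872 of 4 to 16 kb, 0.75 for the 234 of 16 to 64 kb and 1.20 for the 43 over 64 kb. Within the fourth level class it was 0.10 for the 424 models of 1 to 4 kb, 0.42 for the 299 of 4 to 16 kb and 1.63 for the 54 of 16 to 64 kb, of which 37 (68.5%) were called higher. At 1 to 4 scaled FPKM it was -0.25 for the 1009 models of 1 to 4 kb and 0.77 for the 55 over 64 kb. Across all models the relation was weak, with Spearman's rho of 0.139 between span and log2 difference and 0.106 between level and log2 difference (10028 models of the same 4 libraries, no test).

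**Figure D3:**
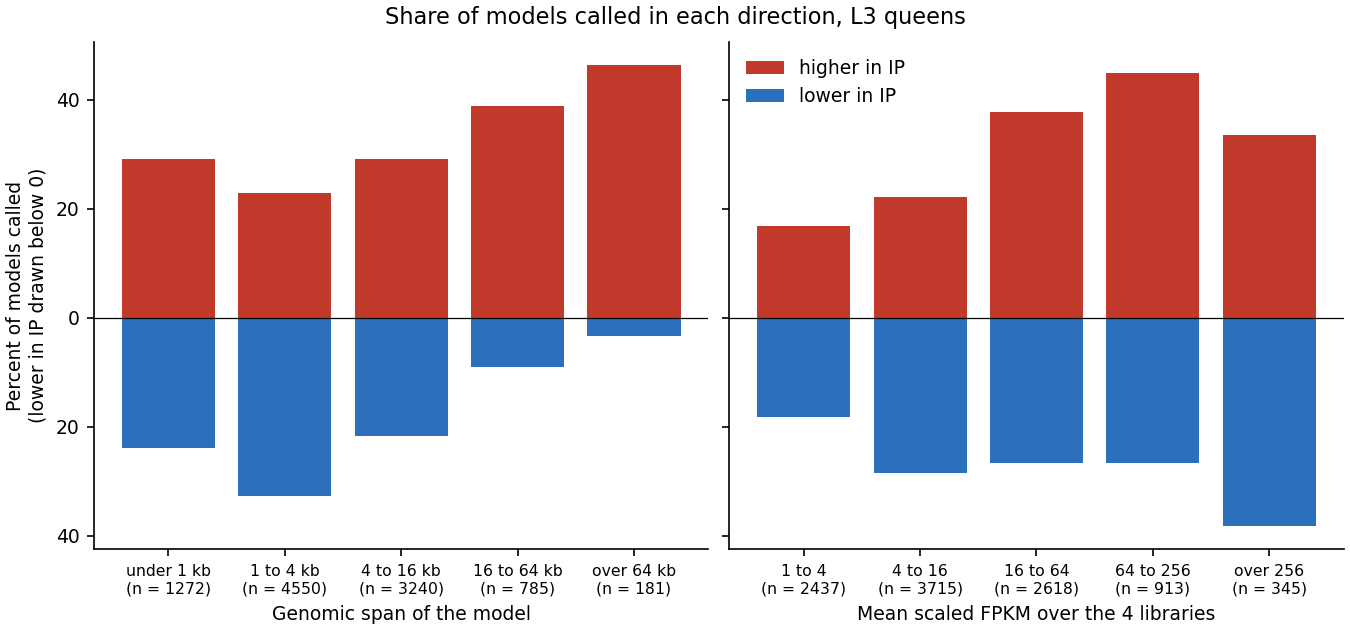
Percent of models called higher in IP (red, above 0) and lower in IP (blue, drawn below 0) in L3 queens, by genomic span (left) and by mean scaled FPKM over the 4 libraries (right), with the number of models under each bar. The share called higher climbs from 22.9% at 1 to 4 kb to 46.4% over 64 kb while the share called lower falls from 32.7% to 3.31%, and by level the share called higher is greatest, at 44.9%, in the fourth class.

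The most enriched models were not the widest. The 156 models over 3 log2 units had a median span of 2176.5 bases and went from a median of 6.97 scaled FPKM in input to 114.2 in IP. The 430 models of 2 to 3 log2 units had a median span of 3204.5 bases, and the 1270 models of 1 to 2 units one of 4284 bases, with medians of 24.8 in IP and 8.68 in input. On the other side, the 37 models lower by over 2 log2 units had a median span of 965 bases and fell from a median of 47.4 scaled FPKM in input to 8.74 in IP. Of the 156 most enriched models 12.8% overlapped another model, against 26.2% of the 891 models higher by up to 1 log2 unit. These shares describe the lists and were not tested.

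Neighbours on a scaffold were called in the same direction at shares near those of all models. A higher model was followed by another higher one in 31.2% of cases, against 27.4% of all models called higher, and a lower model by a lower one in 31.0%, against 25.7% of all. With 53.1% of all models called, 108 runs of at least 4 tested neighbours in 1 direction were found, and they are given as a description. Of these, 52 runs with 237 models were higher in IP and 56 runs with 246 models were lower. The longest was on Group13.12 (835416 to 1342894), where 9 neighbouring tested models of 16 in the region were all higher, by 0.62 to 2.22 log2 units. Their summed scaled FPKM was 132 and 150.6 in IP against 62.0 and 70.2 in input. On Group4.9 (2128639 to 2176637) all 8 models of the region were higher, by 1.06 to 2.67 log2 units, with sums of 325.3 and 522.3 in IP against 74.1 and 117.9 in input. IP replicate 2 and input replicate 2 were both the higher of their kind there. That the groups did not overlap follows from the selection, since every called model had its IP and input libraries apart.

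The run with the highest median lay on Group13.6 (232869 to 281305), with 5 models higher by 1.81 to 2.70 log2 units. It summed to 1178 and 1625 scaled FPKM in IP against 202.1 and 272.5 in input. In L3 workers the same models summed to 620.6 and 642.3 in IP against 91.9 and 91.7 in input. Lower runs were more compact, with a median extent of 16584 bases against 53754.5 for the higher runs. On Group15.5 (375937 to 397773) 6 neighbouring models were lower by 0.73 to 1.64 log2 units, with sums of 54.8 and 46.9 in IP against 156 and 136 in input. On Group6.15 (31367 to 81768) 6 models summed to 834 and 722.7 in IP against 1791 and 1557 in input. The number of runs depends on how many models are called and was 48, 26, 31 and 60 without IP replicates 1 and 2 and input replicates 1 and 2, and 60 without overlapping models.

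The calls of L3 queens were then read in larvae whose libraries the comparison had not used. In L3 workers, 2655 of the 2747 models called higher (96.7%) had both IP libraries above both input libraries, against 41.3% of all models tested, and 6 had both below. Of the 2578 models called lower, 2520 (97.8%) had both IP libraries below both inputs, against 44.3% of all models, and 4 had both above. At L1 the same was seen for 2636 higher models (96.0%, against 37.3% of all) and 2498 lower models (96.9%, against 40.1%). Median log2 differences of the models called higher were 1.28 in L3 queens, 1.20 in L3 workers and 1.30 at L1, and of those called lower -0.94, -0.93 and -0.96. Without IP replicate 2 of the L3 queens the models that were called and separated in the same direction fell from 5175 to 3220 in L3 workers and from 5134 to 3210 at L1, with the number of calls.

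Fitted alone, L3 workers gave 6708 calls among 9387 models (71.5%; 35.6% higher and 35.8% lower) and L1 larvae 5169 among 10501 (49.2%; 25.4% higher and 23.8% lower). Of the models called higher in L3 queens, 91.1% were called higher in L3 workers, and they made up 74.9% of the worker list. At L1 the shares were 81.7% of the queen list and 84.2% of the L1 list. For models called lower they were 90.7% and 69.5% in L3 workers and 81.1% and 83.5% at L1. The log2 differences of L3 queens correlated with those of L3 workers at Pearson's r of 0.959 and with those of L1 larvae at 0.963, over 10028 models measured with the same protocol.

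At L5 the same models stood much less apart. In L5 queens 1019 of the 2747 models called higher (37.1%) had both IP libraries above both inputs, against 23.4% of all models, with a median log2 difference of 0.30. Of the models called lower 757 of 2578 (29.4%) had both IP libraries below, against 15.1% of all, with a median of -0.15. In L5 workers the shares were 63.1% (against 33.1% of all) and 49.3% (against 21.7%), with medians of 0.58 and -0.33. The ordering by size was kept, since the 156 models over 3 log2 units in L3 queens had medians of 0.80 in L5 queens and 1.62 in L5 workers, against 0.17 and 0.36 for the 891 models of up to 1 unit.

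**Figure D4:**
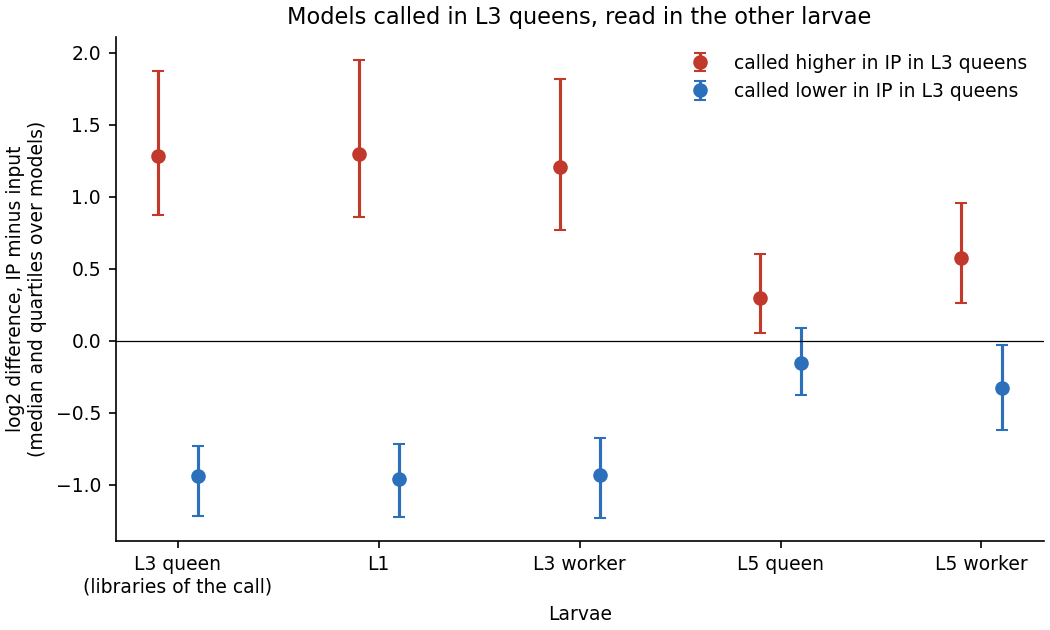
Median log2 difference between IP and input (y axis, bars from the lower to the upper quartile over models) of the models called higher (red) and lower (blue) in L3 queens, in L3 queens and in 4 kinds of larvae whose libraries were not used for the call. The medians of L1 (1.30 and -0.96) and L3 workers (1.20 and -0.93) lie close to those of L3 queens (1.28 and -0.94), and those of L5 queens (0.30 and -0.15) and L5 workers (0.58 and -0.33) lie nearer to 0.

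The enrichment of L3 queens was tested against that of L3 workers, model by model, as a difference of differences in the 12 L1 and L3 libraries. Of 10167 models 7 (0.0689%) passed a limma adjusted p under 0.05, 4 with more enrichment in queens (0.0393%) and 3 with less (0.0295%). At an unadjusted p under 0.05 by limma there were 311. The difference exceeded 1 log2 unit in 159 models (1.56%), and its median SE was 0.26 log2 units. Of the 7 models, 4 were listed at 0 in both libraries of at least 1 of the 4 groups compared. Values in the comparisons between larvae are scaled over the libraries of each fit and so differ slightly from those above.

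The 2 models with the highest enrichment in queens relative to workers were GB53813 and GB41328. GB53813 (Group3.12, 217996 to 218377, minus strand) had 8.11 and 4.92 scaled FPKM in queen IP and was listed at 0 in both queen inputs and in the 4 worker libraries (limma adjusted p = 9.88e-03). It met the filter on low values only through the 2 queen IP libraries, so its call is a description and no support for a caste difference. GB41328 (Group5.18, 65181 to 65384, plus strand) had 4.74 and 4.17 in the IP of queens against 1.46 and 2.06 in their input, but 0.633 and 1.41 in the IP of workers against 4.18 and 3.50 in theirs. IP was thus above input in queens and below it in workers, 2.27 ± 0.29 log2 units apart (limma SE, spread pooled over the 12 libraries, limma adjusted p = 0.0396).

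The 2 models with the lowest enrichment in queens relative to workers were both listed at 0 in the worker inputs. GB50849 (Group2.11, 1575238 to 1576521, plus strand) had 47.1 and 33.5 in the IP of queens, 8.30 and 5.82 in their input, and 31.2 and 28.6 in the IP of workers (limma adjusted p = 9.88e-03). GB44335 (Group7.22, 216848 to 219497, plus strand) had 30.4 and 29.1 in the IP of queens, 10.1 and 11.5 in their input, and 11.5 and 18.2 in the IP of workers (limma adjusted p = 9.88e-03). With models listed at 0 in both libraries of a group left out, 1 model passed, and GB41328 had a limma adjusted p of 0.0819. GB41328 missed the threshold under 13 of its 15 alternatives, with adjusted p-values by limma from 0.0242 to 1. The count was 3 without queen IP replicate 2, without queen input replicate 2 and without worker input replicate 1.

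Against L1 larvae 2 of 10167 models passed (0.0197%), in the same fit, 1 with more enrichment in queens (0.00984%) and 1 with less (0.00984%). At an unadjusted p under 0.05 by limma there were 275. GB55717 (Group6.38, 701641 to 702345, plus strand) had 112.2 and 114.8 scaled FPKM in the IP of queens against 70.0 and 70.3 in their input, and 132.5 and 132.4 in L1 IP against 25.7 and 25.9 in input. Its log2 enrichment was 0.69 in queens and 2.32 at L1, a gap of -1.63 ± 0.13 (limma SE, spread pooled over the 12 L1 and L3 libraries, limma adjusted p = 4.01e-03). It also passed against L3 workers, in which IP had 199.4 and 205.2 against 362.7 and 324.5 in input, a log2 difference of -0.76. Its IP values thus stayed within 112.2 to 205.2 in the 3 kinds of larvae while its inputs ranged from 25.7 to 362.7. GB53813 was the other model, listed at 0 in all 4 L1 libraries (limma adjusted p = 0.0238). Its call is a description here too, since only the queen IP libraries brought it past the filter. By library, 1 model passed without queen IP replicate 1, without queen IP replicate 2, without L1 IP replicate 2 and without L1 input replicate 2, and 0 passed without queen input replicate 1, where 281 had an unadjusted p under 0.05 by limma.

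Against L5 queens 768 of 10409 models (7.38%) passed in the fit of the 8 queen libraries, 541 with more enrichment at L3 (5.2%) and 227 with less (2.18%). GB53599 had 779.5 and 679.6 scaled FPKM in L3 IP against 16.2 and 13.3 in input, but 16.3 and 10.8 in L5 IP against 8.77 and 9.83 in input. Its inputs lay within 8.77 to 16.2 in both instars while its IP values were far apart. Enrichment differed by 5.06 ± 0.34 log2 units (limma SE, spread pooled over the 8 queen libraries, limma adjusted p = 3.65e-03). GB49103 (Group3.4, 139534 to 140570, plus strand) had 173.7 and 161.5 in L3 IP, 2.71 and 4.01 in L3 input and 3.07 and 1.57 in L5 IP, with 2.41 and a value listed at 0 in L5 input (limma adjusted p = 0.0231). GB54055 (Group11.12, 142603 to 142857, plus strand) had 14.8 and 16 in L3 IP, 21.0 and 22.8 in L3 input and 32.5 and 24.7 in L5 IP, against values listed at 0 in both inputs (limma adjusted p = 2.79e-03). GB55246 (Group11.6, 1401142 to 1402272, plus strand) had 1.62 and 1.35 in L3 IP, 8.73 and 7.80 in L3 input and 4.07 and 4.18 in L5 IP, against values listed at 0 in both inputs (limma adjusted p = 4.82e-03).

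The other models named against L5 queens rest in part on values listed at 0. Replicates of L5 queens lay farther apart than those of L3 queens. The median absolute log2 difference between input replicates was 0.45 in L5 queens and 0.21 in L3 queens, and between IP replicates 0.34 and 0.23. Fitted alone, L5 queens gave 0 calls in 10164 models by limma, with 748 at an unadjusted p under 0.05, where L3 queens gave 5325 calls and 6064 models at an unadjusted p under 0.05. The part of this spread in the 768 differences was not tested. Their count was 23, 3, 5 and 32 without L3 queen IP replicates 1 and 2 and input replicates 1 and 2, and 205, 505, 1656 and 1202 without the same libraries of L5 queens. On the FPKM as deposited it was 1292, with 324 higher and 968 lower at L3, and instar cannot be told apart from how the L5 libraries were made.

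**Figure D5:**
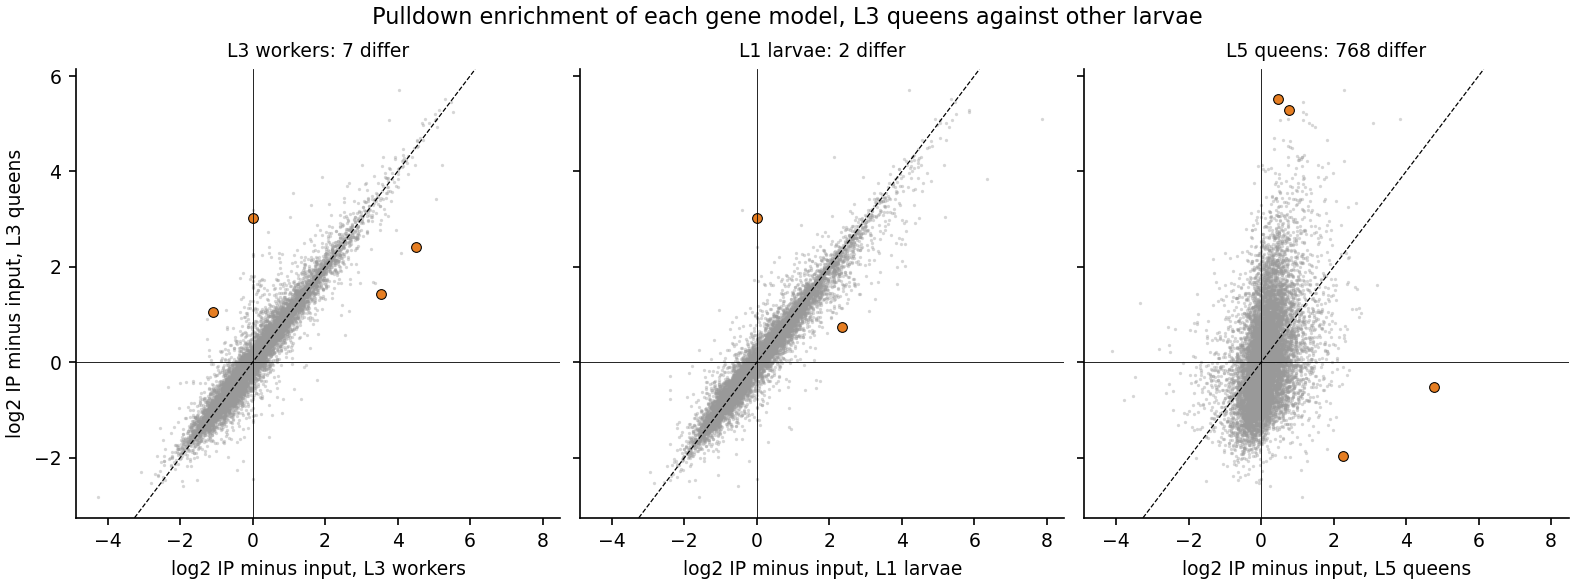
Log2 difference between IP and input of each gene model in L3 queens (y axis) against the same in L3 workers, L1 larvae and L5 queens (x axes), with 1 grey point per model, named models in orange and equal values on the dashed line. The points follow the dashed line against L3 workers (7 models differ) and L1 larvae (2 differ) and form a steep cloud with a narrow spread along the x axis against L5 queens (768 differ).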

How the data were processed

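Per the file headers, the deposited values are FPKM, 1 per gene model and library. The submitters' processing notes name HISAT2 2.1.0, and the labels' protocols name the NEBNext Ultra RNA kit. Neither the program behind the FPKM nor a build or annotation is given in the sources used here.

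FPKM was divided by median-of-ratios factors over the 4 L3 queen libraries, from 8870 models above 1 FPKM in all 4. The fit, by limma 3.58.1 (R 4.3.3; linear model, moderated variances with a trend, 2 IP against 2 input), took log2(scaled FPKM + 1) of models averaging 1 or more. Benjamini-Hochberg adjustment ran over all of these, with a threshold of 0.05. Differences between larvae used 12 libraries (L1 and L3) or 8 (queens). The fits were run on simulated data with independent noise in each library. In the data, deviations of IP and input of the same number correlate, so the simulation gives no error rate for these fits. Named models are the 2 highest and 2 lowest calls of each comparison, plus any holding over 10% of a library of the series. The comparison and its rules were chosen with earlier results of these data known. Alternatives covered pseudocount, filter, scaling, libraries fitted, replicate block and each library left out. Figures used matplotlib 3.10.9.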

Additional observations from a re-analysis of the deposited data

Results flagged for a closer look

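Tests of the difference in enrichment between kinds of larvae passed (limma adjusted p under 0.05) for 7 models between L3 queens and L3 workers, for 2 between L3 queens and L1 larvae and for 768 between L3 queens and L5 queens. Against L3 workers the named models were GB53813 (limma adjusted p = 9.88e-03), GB41328 (0.0396), GB50849 (9.88e-03) and GB44335 (9.88e-03). Against L1 larvae they were GB53813 (limma adjusted p = 0.0238) and GB55717 (4.01e-03). Against L5 queens they were GB53599 (limma adjusted p = 3.65e-03), GB49103 (0.0231), GB54055 (2.79e-03) and GB55246 (4.82e-03). GB53813 was listed at 0 in every L1, L3 worker and L3 queen library other than the 2 IP libraries of L3 queens. It passed the filter on low values only through those 2 libraries, so its p-values are no support. With 2 libraries per group no test for a library far from its group was possible.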

How the results depend on the processing

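GB53599, GB54979, GB52538 and GB43330 passed under each alternative that could be fitted for them. GB52617 did so too, but it was listed at 0 in both inputs and passed the filter through IP alone, so this is no support. It could not be fitted where models listed at 0 in both libraries of a group were left out. GB44996 missed the threshold in the comparison as reported and reversed to -0.21 on the FPKM as deposited and -0.12 with upper-quartile scaling, while it passed with the replicate block (0.24, limma adjusted p = 1.98e-03). The models called lower in IP numbered 3961 on the FPKM as deposited. The runs numbered 191 on the FPKM as deposited, 178 with upper-quartile scaling, 61 with all libraries fitted together and 60 without overlapping models. The span difference was 0.46 with no filter on low values, which adds models near 0.

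With 1 library left out, the calls numbered 3289 to 4166, those higher in IP 1876 to 2351, those lower 1413 to 1826, those also separated in L3 workers 3220 to 4056 and at L1 3210 to 4029, the runs 26 to 60, and the differences from L3 workers 3 to 9, from L1 larvae 0 to 3 and from L5 queens 3 to 1656. In these fits the lone library of a group was assumed to vary like the others.

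Differences from L3 workers numbered 45 with no filter on low values, 2 on the FPKM as deposited, 3 with the 8 libraries of both kinds alone, and 0 with all libraries fitted together (98 at an unadjusted p under 0.05 by limma). Differences from L1 larvae numbered 1 with a pseudocount of 0.1, 0 with all libraries (97 at an unadjusted p under 0.05 by limma) and 0 with the 8 libraries alone (245 at an unadjusted p under 0.05). Leaving out models listed at 0 in both libraries of a group, an alternative chosen after seeing the data, gave 1 for L3 workers and 1 for L1 larvae. Differences from L5 queens numbered 1957 with all libraries and 1292 on the FPKM as deposited. GB53599 and GB54055 kept their calls against L5 queens under every alternative fitted, while GB49103 lost its call in 7 of 14 and GB55246 in 2 of 13. The named differences from L3 workers lost their calls in 4 to 13 alternatives each, and those from L1 larvae in 4 (GB55717) and 8 (GB53813, of 11 fitted). The cause of these moves was not tested.

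The labels give IP and input libraries the same replicate numbers without saying what a number marks, and with only 2 pairs the numbers were not taken to pair the samples. The deviations of IP and input of the same number correlated at r = 0.636 across models. The log2 differences of the 2 pairs correlated at r = 0.949 with same numbers and at 0.798 with crossed numbers. A fit without the block leaves variation shared by a number in the residual spread. With the replicate number as a block, 7652 models were called and kept all 5325, 3862 higher and 3790 lower, with 311 runs, and differences from L3 workers, L1 larvae and L5 queens numbered 11, 12 and 2887.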

Other observations

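Enriched models were spread over the 16 numbered groups of scaffolds, with between 23.5% (Group15) and 33.3% (Group7) of the tested models of each called higher in IP in L3 queens. The shares called lower ranged from 19.4% (Group13) to 30.2% (Group15). On the 800 tested models of unplaced scaffolds 20.9% were higher and 30.9% lower, with a median log2 difference of -0.25 and a median span of 2340.5 bases against 3314.5 for all models tested. Models of the plus and minus strands had 27.2% and 27.6% called higher. A model called higher was followed by a lower one in 22.5% of cases, and a lower model by a higher one in 23.2%, where 25.7% and 27.4% of all models tested were called lower and higher. These shares describe the lists and were not tested.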
